A study of Mus musculus with 18 samples.

Results

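Cells detect misplaced or foreign DNA and RNA through a small set of sensor proteins, and the transcripts of 10 such genes were followed in mouse heart tissue after a single high dose of radiation. The genes were taken by name, although earlier results of these data were known when they were chosen. They were Cgas (Mb21d1), Sting1 (Tmem173), Zbp1, Ifih1, Rigi (Ddx58), Tlr3, Tlr7, Tlr9, Trex1 and Samhd1. All 10 were found among the 30072 genes in the deposited table, and all 10 passed the filter on low counts that left 15054 genes for testing.

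Bulk RNA sequencing was performed on heart tissue of 18 adult CD-1 mice, an outbred stock, with 6 mice in each of 3 groups. Control mice were anesthetized and imaged by CT but did not receive the treatment dose. The other 2 groups received 25 Gy to the heart as 1 dose under anesthesia and were examined 2 weeks or 6 weeks later (2 and 6 weeks post-IR). The labels give no time of collection for controls, so time post-IR and age at collection cannot be told apart. All mice were at least 8 weeks old and both sexes were used, but the labels give no sex for a single mouse. The labels name the septum and gamma rays where the methods of the study name ventricular tissue and X-rays.

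Estimated counts summed to between 11522987 and 15501019 per mouse, so that 3 counts, the limit used here for a gene at 0, correspond to 0.194 to 0.260 CPM, a unit that divides counts by the total of the mouse (all other CPM values were TMM-normalized). This covers counting error only. Mitochondrially encoded genes took 19.8 to 25.0% of the counts in controls, 17.8 to 20.6% at 2 weeks and 16.5 to 20.0% at 6 weeks. The defining genes of cardiomyocytes were abundant in every mouse, with a summed level of 21899 to 32718 TPM (abundance scaled for transcript length and depth) over 6 markers in controls. At 6 weeks all 6 of these cardiomyocyte markers were called lower than in controls (adjusted P under 0.05), beside 11.5% of all genes. Their log2 fold changes were between −0.61 and −0.41, although that of Myl2 turned to 0.021 on the TPM scale. Their summed level at 6 weeks, 25304 to 27746 TPM, lay within the control range. In bulk tissue a fold change of a marker depends on the scaling and can reflect fewer cells of a type or less RNA per cell. The same holds for the sensors, and these cannot be told apart.

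The sensors fall into classes by ligand and place. In the cytosol, cGAS binds double-stranded DNA and makes the messenger cGAMP, which activates STING on the endoplasmic reticulum, whereas RIG-I and MDA5 (the product of Ifih1) bind RNA and signal through MAVS. ZBP1 binds Z-form nucleic acids and can engage RIPK3, a kinase of necroptosis. In endosomes, TLR3 binds double-stranded RNA, TLR7 single-stranded RNA and TLR9 unmethylated CpG DNA. The branches lead to type I interferon, and several sensors are themselves interferon-induced. TREX1, a DNA exonuclease, and SAMHD1, a dNTP triphosphohydrolase, lower the load of nucleic acid and act as brakes.

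Promoter sequence from RefSeq (GRCm38.p6, from 250 bases before to 50 bases after the annotated start) was available for 7 of the 10 genes, and none was matched for Zbp1, Sting1 and Tlr7. Each window was searched on both strands for the core of the interferon-stimulated response element, GAAANNGAAA. It was found in the windows of Ifih1 and Rigi and in 3.44% of all 32851 windows. The 30 bases around each match are shown, because both genes bind RNA, belong to the same helicase family and are discussed below. They are written 5′ to 3′ on the strand of the gene, with the matching bases in capitals, and they lie at chr2:62646206-62646235 (minus strand) for Ifih1 and at chr4:40239804-40239833 (minus strand) for Rigi.
Ifih1: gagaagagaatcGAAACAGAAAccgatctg
Rigi: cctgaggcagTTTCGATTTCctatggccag
In Ifih1 the match reads in the direction of the gene and spans positions 33 to 42 after the start. In Rigi it is on the opposite strand and spans positions 3 to 12. A second motif, the gamma-activated site core TTCNNNGAA, was found in Samhd1 alone of the 7 genes, of which Trex1 had 2 windows, and in 8.3% of all windows. These are matches of letters, and the windows give no information on binding.

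At 6 weeks post-IR, 9 of the 10 sensor genes were higher than in controls at an adjusted P under 0.05, and none was lower. Over all genes tested, 13.5% were called higher and 11.5% lower in the same comparison. The median log2 fold change of the 10 genes was 0.96, against −0.02 over all genes. The largest change was in Zbp1 and the smallest called changes were in the brakes, Trex1 and Samhd1, whereas Sting1 did not pass. All 10 changes stayed above 0 under each scaling tried. A log2 fold change of 1 was also exceeded by 5 of the 10 (Cgas, Zbp1, Ifih1, Rigi and Tlr9) and by 5.26% of all genes. In 6 genes (the same 5 and Trex1) every 6-week mouse was above every control, which was the case for 5.8% of all genes. The count of 9 ran from 7 without the sixth 6-week mouse to 10 without the fourth control.

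At 2 weeks post-IR only Zbp1 was called higher, 1 of 10 against 3.1% of all genes, and none was lower, against 1.93%. Zbp1 also exceeded a log2 fold change of 1 (0.737% of all genes did), and no sensor gene had groups that did not overlap, compared with 1.96% of all genes. All 10 fitted changes were above 0, with a median of 0.37 against −0.00 over all genes. The count fell to 0 in 8 of the 18 fits that each left out 1 mouse, and it reached 2 in 5 of them, in which Rigi was also called.

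From 2 to 6 weeks, 4 of 10 were higher (Cgas, Zbp1, Rigi and Tlr9) and none lower, against 3.31% higher and 2.01% lower over all genes. Zbp1 and Tlr9 exceeded a log2 fold change of 1 (0.963% of all genes), and Cgas and Tlr9 had groups that did not overlap (2.27%). Leaving out single mice changed this count by more than that at 6 weeks. It was 0 without 2-week mouse 2 or 6-week mouse 6, 1 without 2-week mouse 1 or 4 or 6-week mouse 3, 2 without control mouse 2, 2-week mouse 6 or 6-week mouse 1 or 4, and 6 without 2-week mouse 3. The comparisons at 2 and 6 weeks share the same 6 control mice.

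**Figure D1:**
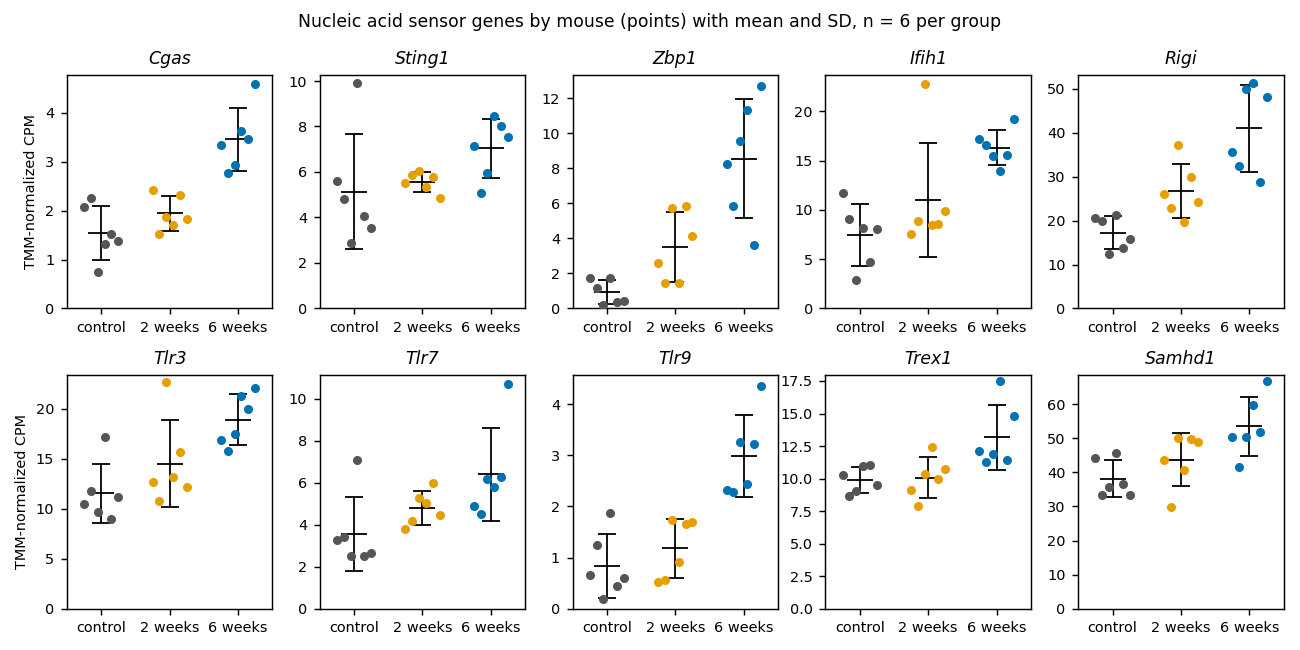
TMM-normalized CPM of the 10 sensor genes in each mouse (points), with the mean and SD of each group of 6 (bars), for control mice and mice at 2 and 6 weeks post-IR. All 6-week mice lie above all controls for Cgas, Zbp1, Ifih1, Rigi, Tlr9 and Trex1, and 1 control lies at 9.92 CPM for Sting1.

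**Figure D2:**
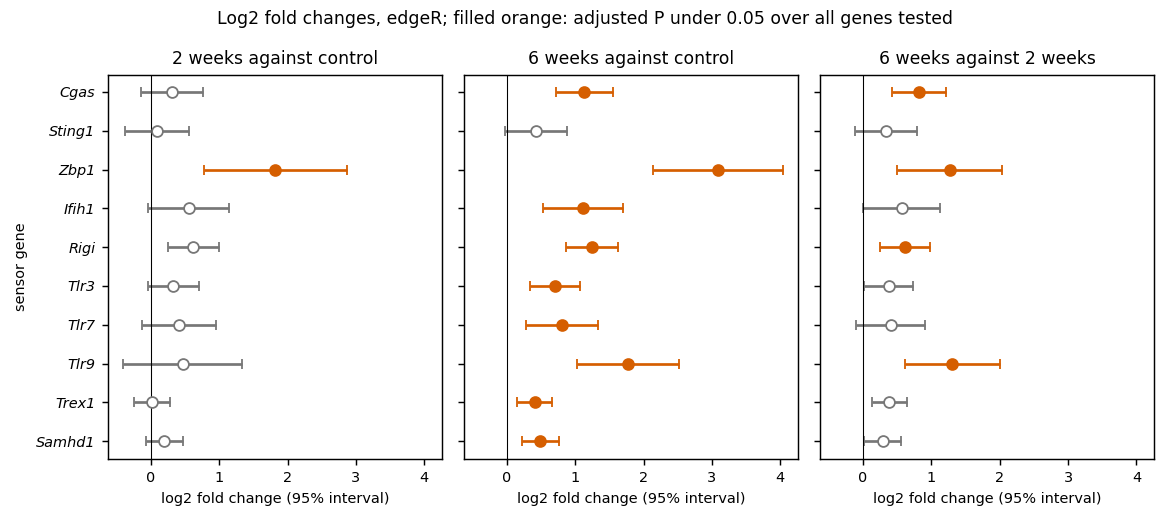
Log2 fold changes of the 10 sensor genes with 95% intervals from edgeR in 3 comparisons; filled orange points have an adjusted P under 0.05 over all 15054 genes tested. One gene is filled at 2 weeks (Zbp1), 9 at 6 weeks and 4 between 6 and 2 weeks.

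Among the sensors of cytosolic DNA, Cgas, the synthase of cGAMP, was one of the least abundant transcripts. It is annotated on the minus strand of chr9:78430526-78443237 (ENSMUSG00000032344; GRCm38, GENCODE M21). In controls it ranged from 0.740 to 2.25 CPM with a median of 1.45, at 2 weeks from 1.52 to 2.42 CPM with a median of 1.85, and at 6 weeks from 2.78 to 4.59 CPM with a median of 3.40. The 6-week mice were all above every control and every 2-week mouse, while controls and 2-week mice overlapped. The fold change at 6 weeks was 2.19 (95% interval 1.64 to 2.93; log2 1.13, SE 0.200, adjusted P = 0.000451), and at 2 weeks it was 1.24 (0.906 to 1.70; adjusted P = 0.444). From 2 to 6 weeks Cgas rose 1.77-fold (1.34 to 2.33; adjusted P = 0.0217), but this did not pass without the second 2-week mouse (adjusted P = 0.0510) or the sixth 6-week mouse (0.0543). The counts behind these values were 8 to 61 per mouse. A transcribed pseudogene, Gm8093, overlaps Cgas on the opposite strand, and whether the genes share reads was not tested.

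Sting1, the membrane adaptor that cGAMP activates, was the only sensor gene not called in any comparison. It lies on the minus strand of chr18:35733679-35740554 (ENSMUSG00000024349). Its levels ran from 2.87 to 9.92 CPM in controls (median 4.46), 4.84 to 6.05 at 2 weeks (median 5.64) and 5.06 to 8.45 at 6 weeks (median 7.34). The highest value of all 18 mice was that of the fourth control, 9.92 CPM, so the groups overlapped. The log2 fold change was 0.09 at 2 weeks (95% interval −0.38 to 0.56, adjusted P = 0.866) and 0.43 at 6 weeks (−0.03 to 0.88, SE 0.218, adjusted P = 0.170). Without the fourth control, the 6-week change became 0.73 with an adjusted P of 0.00269. It was also called after scaling to library size alone (0.67, adjusted P = 0.0263). The same was the case with limma on log2(TPM + 1) (0.70, adjusted P = 0.00328) and on log2(TPM + 0.1) (0.92, adjusted P = 0.00412). Cgas and Sting1, consecutive steps of 1 pathway, were thus called differently at 6 weeks with TMM scaling and all 18 mice. A difference between their changes was not tested.

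Zbp1 showed the steepest increase. It lies on the minus strand of chr2:173206612-173218923 (ENSMUSG00000027514). Controls had 0.185 to 1.76 CPM (median 0.799), 2-week mice 1.44 to 5.83 (median 3.34) and 6-week mice 3.62 to 12.7 (median 8.88). The lowest control value stood for 2 counts, under the limit of 3, and the highest count of any mouse was 169. Every 6-week mouse was above every control, the 2-week mice reached down into the control range, and the 6-week mice overlapped those at 2 weeks. The fold change was 3.54 at 2 weeks (95% interval 1.72 to 7.28; log2 1.82, SE 0.497, adjusted P = 0.0404) and 8.52 at 6 weeks (4.42 to 16.5; log2 3.09, SE 0.453, adjusted P = 8.60e-05). Between 2 and 6 weeks it was 2.41 (1.42 to 4.10; adjusted P = 0.0496).

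The 6-week call of Zbp1 passed in every alternative tried, with an adjusted P of at most 0.000929. The 2-week call did not: adjusted P ran from 0.00244 to 0.0965 over the alternatives. It was above the threshold with limma voom (0.0962), with a fit of only the 2 groups (0.0511) and with a replicate block (0.0785). The same was the case when control mouse 2, 3, 5 or 6 or 2-week mouse 1, 3, 5 or 6 was left out (0.0523 to 0.0965). The step from 2 to 6 weeks was above the threshold in 10 of the 18 fits without 1 mouse (control 2 and 5, 2-week mice 1, 2, 4 and 6, and 6-week mice 1, 3, 4 and 6; adjusted P up to 0.117). It was also above the threshold without a filter (0.0597), with log2(TPM + 0.1) (0.0606), with only the 2 groups (0.0522) and with a replicate block (0.0975).

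Both RNA helicases rose more than 2-fold at 6 weeks. Rigi lies on the minus strand of chr4:40203773-40239828 (ENSMUSG00000040296). It was measured at 12.5 to 21.2 CPM in controls (median 17.8), 19.7 to 37.2 at 2 weeks (median 25.2) and 28.9 to 51.3 at 6 weeks (median 41.9). Mice at 6 weeks were all above controls, and those at 2 weeks overlapped both other groups. Rigi was 2.37-fold higher at 6 weeks (95% interval 1.82 to 3.07; log2 1.24, SE 0.179, adjusted P = 7.33e-05), a call that passed in every alternative (at most 0.000647).

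At 2 weeks the 1.54-fold difference in Rigi (1.19 to 2.00; log2 0.62, SE 0.180) lay just beyond the threshold, with an adjusted P of 0.0510. It was called under 11 of the alternatives, DESeq2 (0.0145) and the omission of control mouse 1 or 4, 2-week mouse 4 or 6-week mouse 4 or 5 (0.0340 to 0.0494) among them. From 2 to 6 weeks Rigi rose 1.54-fold (1.19 to 1.98; adjusted P = 0.0455). This call was lost without control mouse 2, 2-week mouse 1, 2, 4, 5 or 6 or 6-week mouse 1, 3, 4 or 6 (adjusted P 0.0513 to 0.105). It was also lost without a filter (0.0559), with log2(TPM + 1) (0.0508), with log2(TPM + 0.1) (0.0774) and with a replicate block (0.0902).

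Ifih1, which encodes the long-RNA sensor MDA5, lies on the minus strand of chr2:62595798-62646255 (ENSMUSG00000026896). Its range was 2.87 to 11.7 CPM in controls (median 8.10), 7.56 to 22.7 at 2 weeks (median 8.76) and 13.9 to 19.2 at 6 weeks (median 16.1). The third 2-week mouse, at 22.7 CPM, was the highest of all 18, and the other 2-week mice lay within the control range. At 6 weeks, by contrast, the lowest mouse was above the highest control. The fold change at 6 weeks was 2.17 (95% interval 1.45 to 3.25; log2 1.12, SE 0.279, adjusted P = 0.00630) and that at 2 weeks was 1.47 (0.972 to 2.22; adjusted P = 0.283). Between 2 and 6 weeks Ifih1 did not pass (log2 0.56, adjusted P = 0.235), but did so without the third 2-week mouse (0.91, adjusted P = 0.0304).

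All 3 endosomal receptors were higher at 6 weeks and none was called at 2 weeks. Tlr9, the CpG DNA receptor, lies on the plus strand of chr9:106222598-106226883 (ENSMUSG00000045322) and had the lowest counts, 2 to 58 per mouse. It ranged from 0.185 to 1.87 CPM in controls (median 0.627), 0.514 to 1.74 at 2 weeks (median 1.29) and 2.29 to 4.36 at 6 weeks (median 2.83). The 6-week mice did not overlap either of the other groups. The 6-week fold change was 3.41 (95% interval 2.03 to 5.74; log2 1.77, SE 0.358, adjusted P = 0.00135), and at 2 weeks it was 1.38 (0.755 to 2.52; adjusted P = 0.570). Tlr9 rose 2.47-fold from 2 to 6 weeks (1.53 to 3.997; adjusted P = 0.0303), a call lost without 2-week mouse 1, 2 or 4 or 6-week mouse 3, 5 or 6 (adjusted P 0.0516 to 0.0768).

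Tlr3, the receptor for double-stranded RNA, lies on the minus strand of chr8:45395665-45411080 (ENSMUSG00000031639). Control mice had 8.92 to 17.1 CPM (median 10.8), 2-week mice 10.7 to 22.7 (median 12.9) and 6-week mice 15.7 to 22.04 (median 18.7). One control and the highest 2-week mouse reached into or above the 6-week range. Tlr3 was 1.63-fold higher at 6 weeks (1.27 to 2.10; log2 0.71, SE 0.174, adjusted P = 0.00572), and its log2 change at 2 weeks was 0.33 (SE 0.176, adjusted P = 0.304). The step from 2 to 6 weeks (log2 0.38, adjusted P = 0.207) passed without the third 2-week mouse (0.55, adjusted P = 0.0465).

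Tlr7, the receptor for single-stranded RNA, lies on the minus strand of chrX:167304929-167330558 (ENSMUSG00000044583). Its values were 2.49 to 7.08 CPM in controls (median 2.96), 3.82 to 5.97 at 2 weeks (median 4.75) and 4.51 to 10.7 at 6 weeks (median 5.99). A single mouse stood apart in 2 groups, the fourth control at 7.08 CPM and the sixth 6-week mouse at 10.7 CPM. The fold change at 6 weeks was 1.75 (95% interval 1.22 to 2.53; log2 0.81, SE 0.252, adjusted P = 0.0241). It was no longer called without control mouse 3, 5 or 6 (adjusted P 0.0538 to 0.0556), without 6-week mouse 6 (0.60, adjusted P = 0.0737), or in a fit of only the 2 groups (0.0538). The 2-week change was 0.41 on the log2 scale (SE 0.259, adjusted P = 0.399).

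The smallest called increases were those of the 2 enzymes that remove nucleic acid or its precursors. Samhd1, which breaks down dNTPs, lies on the minus strand of chr2:157097533-157135265 (ENSMUSG00000027639). It ranged from 33.4 to 45.6 CPM in controls (median 36.0), 29.7 to 49.99 at 2 weeks (median 46.2) and 41.6 to 66.7 at 6 weeks (median 51.2). The groups overlapped at both times. Samhd1 was 1.40-fold higher at 6 weeks (95% interval 1.16 to 1.69; log2 0.49, SE 0.129, adjusted P = 0.00940), and at 2 weeks the log2 change was 0.20 (SE 0.129, adjusted P = 0.413).

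Trex1, the cytosolic DNA exonuclease, lies on the minus strand of chr9:109057933-109059734 (ENSMUSG00000049734). All 1147 of its exonic bases (100%) are also annotated as exons of Atrip on the same strand, so the division of reads between these genes is uncertain. Trex1 ranged from 8.66 to 11.04 CPM in controls (median 9.88), 7.86 to 12.4 at 2 weeks (median 10.2) and 11.2 to 17.5 at 6 weeks (median 12.0). The lowest 6-week mouse lay just above the highest control. The fold change was 1.32 at 6 weeks (95% interval 1.11 to 1.58; log2 0.40, SE 0.124, adjusted P = 0.0221) and 1.02 at 2 weeks (0.846 to 1.22; adjusted P = 0.944). The 6-week call was lost without the fourth (adjusted P = 0.0545) or the sixth 6-week mouse (0.0521). Atrip itself had a log2 change of 0.09 at 6 weeks (adjusted P = 0.655).

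Since CPM does not account for transcript length, levels of different sensors were compared in TPM. In controls the order of the mean levels (± SD, n = 6 mice) was Samhd1 (13.4 ± 2.88 TPM), Trex1 (11.1 ± 1.98), Rigi (6.40 ± 2.03), Tlr3 (2.80 ± 0.799), Sting1 (2.53 ± 1.39), Ifih1 (2.17 ± 0.545), Tlr7 (1.59 ± 0.955), Zbp1 (0.919 ± 0.713), Cgas (0.385 ± 0.141) and Tlr9 (0.228 ± 0.177). Every pair of neighbours in this order had overlapping ranges. The brakes had the highest means, and the DNA sensors Cgas and Tlr9 the lowest.

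At 6 weeks Samhd1 (23.8 ± 4.46 TPM), Trex1 (19.2 ± 3.51) and Rigi (17.8 ± 4.80) still led, and Cgas (1.16 ± 0.258) and Tlr9 (1.06 ± 0.326) were still last. Zbp1 moved from rank 8 in controls to rank 5 at 2 weeks (3.23 ± 2.01 TPM) and rank 4 at 6 weeks (9.60 ± 3.75 TPM). Neighbours whose ranges did not overlap were Rigi and Tlr3 at 2 weeks and Tlr7 and Cgas at 2 and at 6 weeks. The TPM of a gene relative to its CPM varied up to 3.16-fold between mice for Ifih1, 2.99-fold for Tlr7 and 2.27-fold for Zbp1, and 1.52- to 1.61-fold for the other 7 genes, so TPM ranks of the former rest on less stable transcript lengths.

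**Figure D3:**
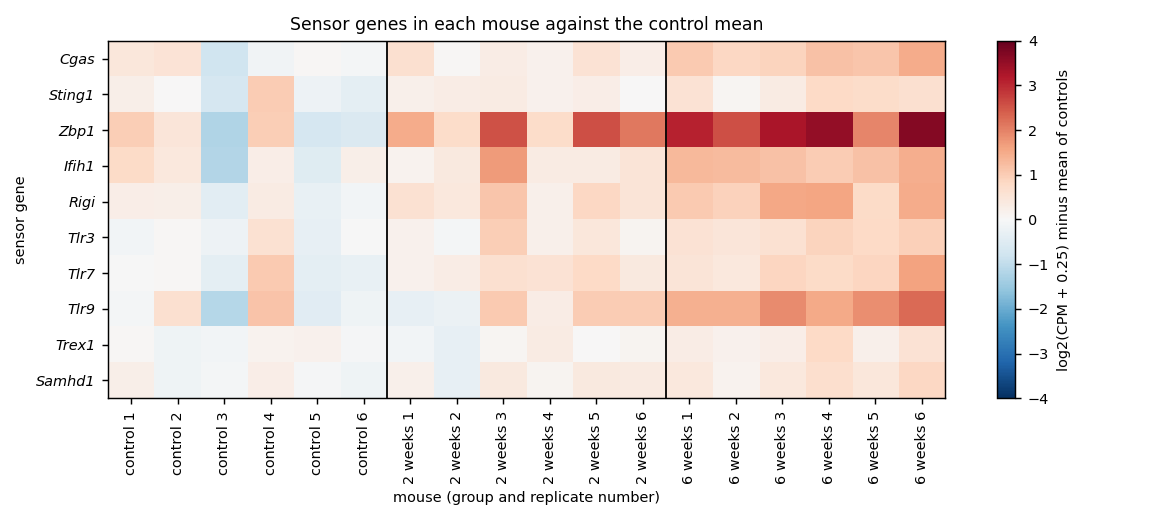
Each cell gives log2(CPM + 0.25) of a sensor gene in 1 mouse minus the control mean of that gene; columns are the 18 mice by group and replicate number. The Zbp1 row is the darkest at 6 weeks, and the third control has the lowest value of its group for 6 of 10 genes.

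High and low values gathered in particular mice. The fourth control was the highest of its group for 6 of the 10 genes and the third control the lowest for 6. Among 2-week mice the third was highest for 6 genes. At 6 weeks the sixth mouse was highest for 7 genes and the second lowest for 7. With the group means removed, log2 CPM over the 18 mice was most alike for Rigi and Zbp1 (Pearson r = 0.895, Spearman rho = 0.862), followed by Tlr7 and Tlr9 (0.779 and 0.820), and least alike for Ifih1 and Trex1 (0.0684 and −0.0134). These values describe the 18 libraries, whose depth and scaling the genes share.

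The genes whose pattern over mice was most like that of each sensor were then listed, among 12868 genes with a mean of at least 1 CPM. For Rigi these were Ifit1 (r = 0.95), Oasl1 (0.94) and Usp18 (0.93), and for Zbp1 they were Oasl1 (0.94), Oasl2 (0.92) and Usp18 (0.91), all of which are interferon-induced genes. For Tlr7 the closest gene was Adgre1 (0.95), the gene of the macrophage antigen F4/80, followed by Igf1 (0.89) and Fyb (0.88). Sting1 was closest to Aspn (0.88), Mpeg1 (0.88) and Laptm5 (0.87), of which Aspn encodes a protein of the extracellular matrix, Mpeg1 is a macrophage gene and Laptm5 is expressed throughout the hematopoietic lineage. Spearman's rho of Sting1 with these 3 was 0.69, 0.79 and 0.45. Genes like Tlr9 included Suco (0.85) and Slfn1 (0.85).

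The remaining sensors had neighbours of mixed kinds. Cgas was closest to Tagln2 (0.91), Ncoa7 (0.84) and Arap1 (0.83), and Ifih1 to Plcb2 (0.88), Il17rc (0.84) and C1galt1c1 (0.80). Samhd1 was closest to Tspan32 (0.86), Zfp182 (0.86) and Fam102b (0.83). The nearest genes were Gdap2 (0.88), Spcs1 (0.85) and Gmfb (0.85) for Tlr3, and Neurl1a (0.81), Pltp (0.79) and Sema3c (0.78) for Trex1.

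To place the 10 genes in their pathway, 4 lists of 79 further genes were examined, of which 78 were in the table and 74 were tested. At 6 weeks 45 of the 74 were called higher and 2 lower, at 2 weeks 12 higher and none lower, and from 2 to 6 weeks 24 higher and 1 lower. Over all genes 13.5% were called higher and 11.5% lower at 6 weeks, 3.1% and 1.93% at 2 weeks, and 3.31% and 2.01% from 2 to 6 weeks. The 12 calls at 2 weeks became 5 without control mouse 6 or 2-week mouse 5, 6 without control mouse 3 or 2-week mouse 6, and 7 without 2-week mouse 1 or 3. The 25 calls from 2 to 6 weeks became 10 without 6-week mouse 3 or 6, 11 without 2-week mouse 1, 2 or 4, and 13 without 2-week mouse 6. The median log2 change at 6 weeks was 1.21 for 18 other sensors, 0.09 for 14 nucleases and editing enzymes, 0.24 for 25 adaptors, kinases and transcription factors and 2.27 for 17 genes of interferon signaling, beside −0.02 over all genes.

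**Figure D4:**
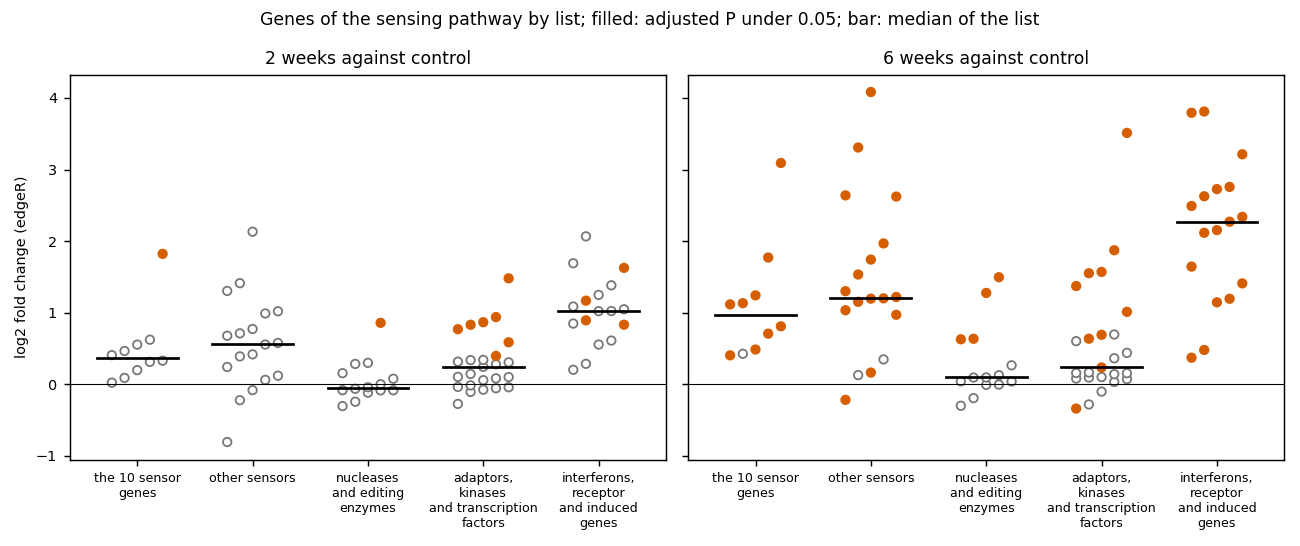
Log2 fold change of each gene tested (points) at 2 weeks (left) and 6 weeks (right) against control, for the 10 sensor genes and 4 pathway lists; filled points have an adjusted P under 0.05 and bars are list medians. At 6 weeks the list medians are 0.96, 1.21, 0.09, 0.24 and 2.27 from left to right.

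Of the other sensors, 15 of 18 rose at 6 weeks and 1 fell, beside 13.5% and 11.5% of all genes. None was called at 2 weeks (edgeR, 0 of 18), beside 3.1% of all genes called higher and 1.93% lower. This count is near those shares and is no result about the list, whose median log2 change at 2 weeks was 0.57. The OAS family, which senses double-stranded RNA, led the list. Oas3 went from a control mean of 0.314 CPM (SD 0.464) to 5.82 (SD 2.62), with a log2 change of 4.08 (adjusted P = 3.59e-05). Oasl1 changed by 3.31 (2.89e-05), Oas1a by 2.62 (4.76e-05) and Oasl2 by 1.97 (0.000104), although reads may be shared within this family. Eif2ak2, the RNA-activated kinase PKR, rose by 1.03 (0.000781). The gene that fell was Dhx36, a helicase of G-quadruplexes, with −0.22 (0.0475), but 0.049 (0.675) after scaling to library size alone and 0.26 (0.0362) with log2(TPM + 1); it was singled out with its value in view.

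Nucleases and editing enzymes had the smallest median change at 6 weeks, with 4 of 14 called higher beside 13.5% of all genes. The 1 gene called at 2 weeks, beside 3.1% of all genes, is no result about the list. Pld4, an endolysosomal exonuclease that degrades TLR9 ligands, was called at both times, with log2 changes of 0.86 at 2 weeks (adjusted P = 0.0453) and 1.496 at 6 weeks (0.000176). Adar, the RNA editing enzyme that marks self RNA, rose by 0.64 (0.000318) and Dnase1l3, an extracellular nuclease, by 1.28 (0.0103) at 6 weeks. Rnaseh2a had −0.30 (0.177) and did not pass.

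Among adaptors, kinases and transcription factors, 7 of 25 were already higher at 2 weeks and 9 at 6 weeks, while 1 was lower at 6 weeks. The shares over all genes were 3.1%, 13.5% and 11.5%. The 2 kinases of the necroptosis pathway that ZBP1 can engage were among them, Ripk3 with 0.94 at 2 weeks (adjusted P = 0.0114) and 1.55 at 6 weeks (1.28e-05), and Ripk1 with 0.40 (0.00889) and 0.69 (9.23e-06). Mlkl, the substrate of RIPK3 and executor of necroptosis, changed by 0.77 (0.0132) and 1.37 (1.12e-05). Some factors of the endosomal branch were also called at both times. They were Unc93b1, the chaperone of the nucleic acid TLRs, with 0.59 (0.0253) and 1.01 (6.67e-05), Slc15a3, a lysosomal transporter, with 0.83 (0.0101) and 1.87 (5.55e-07), and Irf5 with 0.87 (0.0166) and 1.57 (1.28e-05). Of the same list, Cnpy3, Slc15a4, Irak1, Irak4 and Traf6 were called at neither time. Their 6-week log2 changes were 0.09 (0.794), 0.36 (0.169), −0.10 (0.135), 0.44 (0.0705) and 0.16 (0.659). Irf7, the interferon-induced master regulator of type I interferon, had 1.48 (0.0369) and 3.51 (8.80e-06).

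The proteins that connect sensors to these factors were singled out with their values in view. Mavs, the adaptor of RIG-I and MDA5, fell by 0.34 on the log2 scale at 6 weeks (adjusted P = 0.00611), from 84.7 CPM (SD 8.81) in controls to 67.0 (SD 8.26), and also from 2 to 6 weeks (−0.30, adjusted P = 0.0464), but its 6-week change was −0.074 (adjusted P = 0.455) after scaling to library size alone and 0.058 (0.540) with log2(TPM + 1). Tbk1, the kinase shared by the STING and MAVS branches, had 0.07 at 6 weeks (95% interval −0.14 to 0.28, adjusted P = 0.651), and its substrate Irf3 had 0.14 (−0.03 to 0.31, 0.228). With library size alone both passed, at 0.33 (0.0220) and 0.41 (0.00124). Ticam1, the adaptor of TLR3, was called with 0.24 (0.0259), and Myd88, the adaptor of TLR7 and TLR9, had 0.60 (0.0552).

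Interferon-beta itself was at the limit of detection: Ifnb1 had at most 1 count in any mouse, and Ifna2 and Ifna4 had 0 in all 18, which allows no more than 0.260 CPM in the shallowest library. The 17 other genes of this list were all called higher at 6 weeks, and 4 were at 2 weeks, beside 13.5% and 3.1% of all genes. Ifit1 rose by 1.63 at 2 weeks (adjusted P = 0.0314) and 3.21 at 6 weeks (1.48e-05), Bst2 by 1.17 (0.0279) and 2.15 (4.49e-05), and Irf9 by 0.83 (0.0431) and 1.19 (0.000923). At 6 weeks Cxcl10 (3.81, 1.24e-05), Mx1 (3.79, 3.72e-05) and Ifit2 (2.27, 5.46e-05) were among the smallest P values. The response element core named above was found in 9 of the 15 genes of this list with a promoter window. Among them were Ifna2 and Ifna4, which were not tested. It was found in 6 of 14 other sensors, 2 of 23 adaptors, kinases and transcription factors and 1 of 11 nucleases and editing enzymes. A gene was counted if any of its windows matched, whereas the 3.44% above is a share of windows, so they are unlike measures.

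Summed markers of leukocytes were also higher at 6 weeks than in controls.  The summed level of 4 general leukocyte markers was 13.1 to 40.3 TPM in controls, 39.5 to 50.2 at 2 weeks and 71.4 to 128 at 6 weeks. All 4 were called higher at 6 weeks and 3 of 4 at 2 weeks, beside 13.5% and 3.1% of all genes. Ptprc, the gene of CD45, had log2 changes of 1.01 at 2 weeks (adjusted P = 0.0225) and 1.97 at 6 weeks (1.35e-05). The 9 macrophage markers summed to 40.6 to 112, 85.2 to 116 and 134 to 227 TPM, and 7 of them were called higher at 6 weeks, whereas Cd163 was lower (−0.98, adjusted P = 0.00977). Their part in the changes of the sensors was not tested.

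Lymphoid markers were low throughout. The 4 B cell markers summed to 0.321 to 0.666 TPM in controls, 0.294 to 2.21 at 2 weeks and 1.12 to 2.67 at 6 weeks, and the 6 T and NK cell markers to 0.315 to 1.23, 0.667 to 2.57 and 3.04 to 5.75 TPM. At 6 weeks 2 of 3 tested B cell markers and 2 of 4 tested T and NK cell markers were called higher, beside 13.5% of all genes. The 4 neutrophil markers did not separate the groups (0.317 to 6.68, 1.07 to 7.27 and 0.374 to 6.29 TPM), and Ly6g was at 0 in all controls and had at most 1 count elsewhere. The 5 endothelial markers summed to 167 to 241, 229 to 269 and 280 to 408 TPM, and the 5 fibroblast markers to 328 to 806, 436 to 552 and 464 to 629 TPM. The members of these lists did not move together at 6 weeks: 2 endothelial markers were called higher and Tie1 lower (−0.44, adjusted P = 0.000384), with a median log2 change of 0.07, and of the fibroblast markers none was called higher and Pdgfra lower (−0.88, 8.41e-05), with a median of −0.32.

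Plasmacytoid dendritic cells, a known site of TLR7 and TLR9, could not be followed by a summed level, because Cox6a2, a gene of striated muscle, dominated their list. Siglech, their defining marker, had means of 0.383, 0.164 and 0.320 CPM in the 3 groups and was not called (log2 −0.20 at 6 weeks, adjusted P = 0.832). Of the mice that were extreme for the sensors, 3 were also extreme for macrophage markers. The fourth control had 112 TPM of macrophage markers, against 40.6 to 70.3 in the other controls, and the third control had the lowest sum. At 6 weeks the sixth mouse had 227 TPM, against 134 to 169 in the others. The third 2-week mouse (92.7 TPM) and the second 6-week mouse (142 TPM) lay within the ranges of their groups. Other lists had extremes in these mice too. The fourth control had the highest fibroblast (806 TPM) and lowest cardiomyocyte sum (21899) of the controls. The third control had their lowest leukocyte (13.1), endothelial (167) and fibroblast (328) sums. At 6 weeks the sixth mouse had the highest leukocyte (128) and lowest cardiomyocyte sum (25304), and the second mouse the highest fibroblast sum (629).

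**Figure D5:**
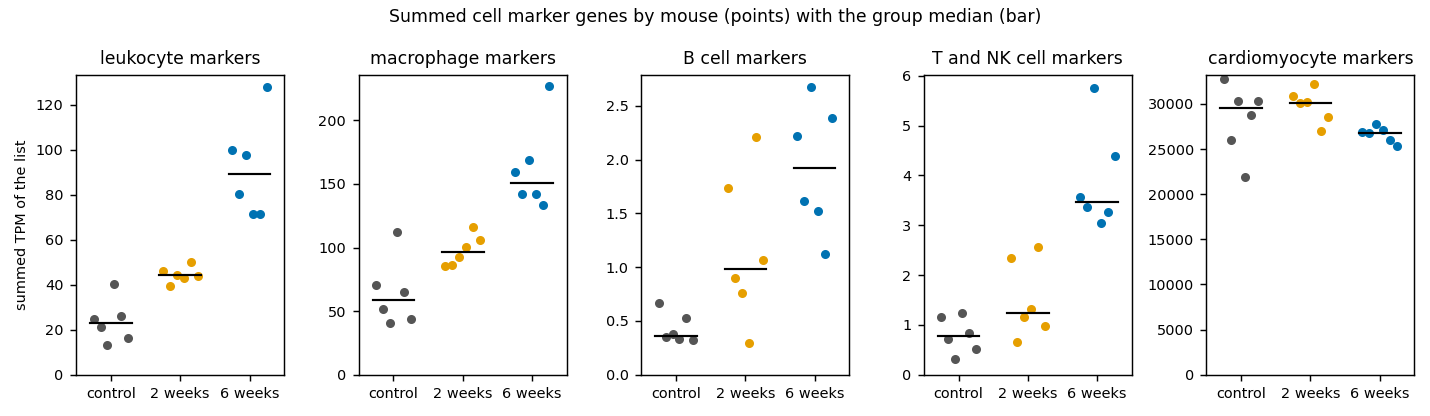
Summed TPM of marker genes per mouse (points) with the group median (bar) for leukocytes, macrophages, B cells, T and NK cells and cardiomyocytes. Leukocyte, macrophage, B cell and T and NK cell sums at 6 weeks lie above those of all controls, and the scale differs between panels.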

How the data were processed

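RNA of 18 mouse hearts (6 per group) was sequenced by the authors, who aligned reads to GRCm38.76 with STAR 2.7.3a, quantified transcripts with Salmon 1.0 and summarized them to genes with tximport, without pooling mice. The deposited estimated counts carry no normalization between mice, and the deposited TPM values are scaled for length and depth within a mouse. The strandedness of the counting is not given in the sources used here.

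Estimated counts were rounded and fitted with edgeR 4.0.16 in R 4.3.3. Genes were kept where 6 or more mice reached 0.23 CPM, libraries were scaled by TMM, and all 3 groups were fitted in 1 quasi-likelihood model. P values are two-sided and adjusted by the Benjamini-Hochberg method over 15054 genes within a comparison, and a gene was called at an adjusted P under 0.05. Intervals are 95% intervals. Likeness was computed on log2 CPM with a prior count of 2. The same code was checked on data with known changes.

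The 10 genes and all lists were chosen with earlier results of these data known. Genes named were the 10 sensors, of each pathway list the 5 with the smallest adjusted P at 6 weeks and those called at 2 weeks, the 3 genes most like each sensor, and markers as sums; some genes that this rule names are not reported here. Alternatives were DESeq2 1.42.0, limma 3.58.1 (voom with quality weights), other scalings, filters, TPM with pseudocounts of 1 and 0.1, a fold threshold, a replicate block, fits of 2 groups and omission of each mouse. Positions are from GENCODE M21, and symbols were found for 29301 genes. The antisense gene at Tlr3 was not analysed here.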

Additional observations from a re-analysis of the deposited data

Results flagged for a closer look

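In 4 of the 30 combinations of sensor gene and group, 1 mouse lay apart from the other 5 by more than 0.625 of the range of its group, the 95% critical value of Dixon's test for 6 values, which chance exceeds in about 1 of 20 groups. Ifih1 in the third 2-week mouse was at 22.7 CPM (gap 0.846 of the range). In the fourth control, Tlr3 was at 17.1 CPM (0.656) and Tlr7 at 7.08 CPM (0.799). In the sixth 6-week mouse, Tlr7 was at 10.7 CPM (0.714).

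The change against control differed between 6 and 2 weeks for 4 sensors by the edgeR test of the difference, in which the controls cancel, so this is the 6- against 2-week comparison given above and no further result. The 6-week change exceeded the 2-week change on the log2 scale by 0.82 for Cgas (adjusted P = 0.0217), 1.27 for Zbp1 (0.0496), 0.62 for Rigi (0.0455) and 1.31 for Tlr9 (0.0303). None of the 4 was called without 2-week mouse 2 or without 6-week mouse 6 (0 of 10 sensor genes in each fit, 5 at an unadjusted P under 0.05).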

How the results depend on the processing

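The 6-week calls of Cgas, Zbp1, Ifih1, Rigi, Samhd1, Tlr3 and Tlr9 held in all alternatives with a test; requiring a log2 fold change above 1 as well left 5 of the 9. The count at 2 weeks, 1 sensor gene, became 2 with DESeq2, library size only or the literal reading of the filter, 3 with log2(TPM + 1) or log2(TPM + 0.1), 0 with limma voom (3 at an unadjusted P under 0.05), and 0 with the replicate block (2 at an unadjusted P under 0.05). Replicate numbers did not pair the mice (correlations of same-numbered deviations −0.0828 to 0.106). Under the block the adjusted P was 0.0785 for Zbp1 at 2 weeks and, from 2 to 6 weeks, 0.0975 for Zbp1 and 0.0902 for Rigi. From 2 to 6 weeks the 4 became 2 without a filter, with log2(TPM + 0.1) and with the fold threshold. Leaving out 1 mouse gave 0 to 2, 7 to 10 and 0 to 6 sensor genes at 2 weeks, 6 weeks and 6 against 2 weeks. Instead of 12 pathway genes at 2 weeks, DESeq2 called 27, library size 29, log2(TPM + 1) 34, log2(TPM + 0.1) 38, the replicate block 6 and the fold threshold 3 (without 1 mouse 5 to 18). Instead of 47 at 6 weeks, 43 to 50 were called without 1 mouse. Instead of 25 from 2 to 6 weeks, log2(TPM + 0.1) and the replicate block each called 15, and fits without 1 mouse 10 to 29. Without 1 mouse, the log2 change at 2 weeks ran from −0.022 (without control mouse 3) to 0.39 for Sting1 and from −0.047 (without 2-week mouse 4; −0.011 without control mouse 2) to 0.083 for Trex1, and was not called. Of 870 recomputed sensor fold changes, 789 kept direction and side of the threshold, 54 lost and 24 gained a call and these 3 turned.

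Scaling mattered for the whole table: with library size only, 5490 genes were called higher and 326 lower at 6 weeks, against 2028 and 1731 with TMM, and the median log2 change of all genes moved to 0.24 (0.29 with log2(TPM + 1), 0.37 with log2(TPM + 0.1)). Changes of Trex1 and Samhd1 of 0.40 and 0.49 are of the order of such shifts, which were upward. Both genes were also called at 6 weeks with library size only and on both TPM scales. The cause of the differences between scalings was not tested. Zbp1, Tlr9 and Cgas had as few as 2, 2 and 8 counts in a mouse, in each case the third control. This limits their fold changes against control at 2 and at 6 weeks.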
